A study of Oryza sativa with 216 samples.

Results

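OsMADS50 and OsMADS56 are the rice MADS-box genes closest to SOC1 of Arabidopsis, and their transcript levels were followed in flag leaves at heading. Each was read from the only probe set that the array's annotation pairs with it, so the members were 2 of 17905 genes and 2 of 57194 probe sets tested. In the RefSeq annotation of assembly ASM3414082v1, OsMADS50 (gene LOC4331445) lies on chromosome 3 and OsMADS56 (gene LOC4349237) on chromosome 10. The arrays covered 210 recombinant inbred lines (RILs), 3 biological replicates of Minghui 63 and 3 of Zhenshan 97. Both parents are untreated, field-grown indica varieties, and each RIL is an inbred descendant of their cross that carries its own mosaic of the parental genomes. A RIL array held mixed RNA of both plantings of that line and had no replicate, whereas a parental array held a single replicate. Several plants went into each sample, all taken in the morning of the day the panicle emerged, so the time of collection followed the development of each line.

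SOC1 of Arabidopsis is a floral integrator, a MADS-box transcription factor that gathers photoperiod, age and other signals and promotes the floral transition. In rice, OsMADS50 is known as an activator of flowering under long days that acts upstream of the florigen genes, and OsMADS56 as a repressor whose protein can form a complex with OsMADS50. Upstream of the florigens, the photoperiod signal passes through the phytochromes, the circadian clock and regulators such as Hd1, Ghd7 and Ghd8. Downstream, the florigen Hd3a turns on the AP1/FUL-like genes OsMADS14 and OsMADS15. The flag leaves had already passed the floral transition when they were collected.

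All values are log2 RMA expression values, on which a difference of 1 is a doubling. The array medians were between 5.15 and 5.32, and replicate arrays of a parent correlated at 0.982 to 0.994 over all probe sets. The 3 leaf markers that could be read (RBCS, OsRCA and CAB2R) averaged 14.3 to 14.5 on the RIL arrays and between 14.3 and 14.4 on both sets of parental arrays. Of the 9 markers of spikelet and floret tissue, 5 averaged below the array median in the RILs and in each parent. OsMADS1 and OsMADS3, which define floret identity and stamens, were among the markers above it, at medians of 8.36 and 5.72 over the RILs. The others above it were OsMADS16 and OsMADS4, at medians of 8.62 and 6.48. In such whole-leaf samples, fewer cells of a type and less RNA per cell cannot be told apart.

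OsMADS50 differed widely among the RILs, with no detectable difference between their parents. Over the 210 RILs it ranged from 6.63 through a median of 8.22 to 9.51, which is a 7.33-fold range. It stood at 8.78, 8.91 and 8.66 on the Minghui 63 arrays and at 8.59, 8.74 and 9.00 on the Zhenshan 97 arrays. The Minghui 63 values lay inside the range of the Zhenshan 97 values. The difference, Minghui 63 minus Zhenshan 97, was 0.01 with an SE of 0.18 (limma adjusted p = 0.991, exact permutation p = 1, where 3 against 3 arrays can give no p below 0.1). The SD over the RILs was 0.47, against 0.18 within the parents, a ratio of 2.69 that exceeded those of 95.3% of probe sets, whose median ratio was 1.03. Of the RILs, 81.4% lay below the lowest parental array, and 12 lines lay above the highest. The lines formed a single distribution, for which 1 normal component had a lower BIC (290) than a pair (307).

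OsMADS56 varied little among the RILs relative to the spread of the parental replicates. Over the RILs it ranged from 10.80 through a median of 11.42 to 12.10, a 2.47-fold range. On the Minghui 63 arrays it stood at 11.68, 12.24 and 11.49, and on the Zhenshan 97 arrays at 11.39, 12.14 and 11.33. Replicate 2 was the highest array of each parent and lay above every RIL. The parents overlapped, and Minghui 63 minus Zhenshan 97 was 0.18 with an SE of 0.27 (limma adjusted p = 0.823, exact permutation p = 0.5). The SD was 0.24 over the RILs and 0.42 within the parents, and only 5.14% of probe sets had a lower ratio than its 0.560. No RIL lay above the highest parental array, and 77 (36.7%) lay below the lowest. One normal component again had the lower BIC. Between the parents, 5.32% of all probe sets passed the test, and neither SOC1-like gene was among them.

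**Figure D1:**
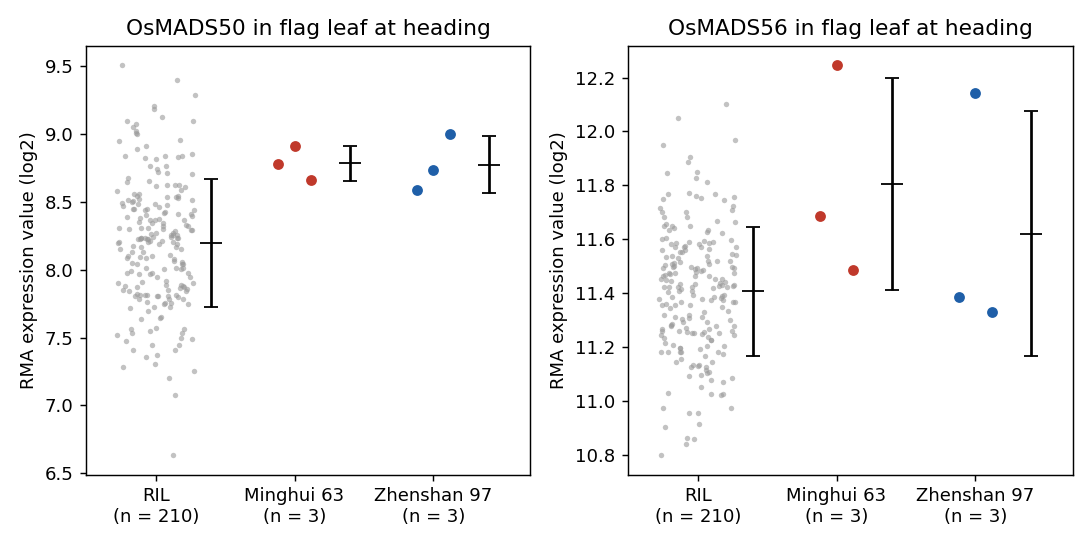
RMA expression values (log2, vertical axis) of OsMADS50 and OsMADS56 on each array, for the 210 RILs, the 3 Minghui 63 and the 3 Zhenshan 97 arrays. Points are arrays, horizontal bars with whiskers are group means with SD, and the 2 panels have different scales. OsMADS50 spreads from 6.63 to 9.51 over the RILs with both parents near the upper part of that range, whereas OsMADS56 stays between 10.80 and 12.10 and has 1 high array in each parent.

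Both genes averaged lower in the RILs than in the parents. OsMADS50 averaged 8.20 ± 0.47 in the RILs (SD, n = 210) and 8.78 over the 6 parental arrays, a difference of -0.58 with an SE of 0.19 (limma adjusted p = 0.0416). For OsMADS56 the means were 11.41 ± 0.24 in the RILs and 11.71 in the parents, a difference of -0.31 with an SE of 0.10 (limma adjusted p = 0.0378). Across all probe sets, 7.5% passed this test, and 4.22% did so with the RILs lower. In permutation tests over arrays the p was 0.00297 for OsMADS50 and 0.00295 for OsMADS56. Both kinds of test treat the 6 parental arrays as independent, although they are replicates of only Minghui 63 and Zhenshan 97. Each RIL array is a separate genotype, so these SEs and p-values do not measure the spread between parental genotypes. The calls were fragile. With the 3′ minus 5′ differences of the array controls, a measure of RNA quality, as covariates, the differences were -0.38 (adjusted p = 0.350) and -0.15 (adjusted p = 0.486). For OsMADS50 the call was lost without any single parental array (adjusted p between 0.0630 and 0.158), and for OsMADS56 it was lost without replicate 1 (adjusted p = 0.0584) or 2 of Minghui 63 (-0.20, adjusted p = 0.352) or replicate 2 of Zhenshan 97 (-0.18, adjusted p = 0.374). Since RIL arrays held mixed RNA and parental arrays did not, handling and genotype cannot be told apart.

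The 2 SOC1-like genes varied together in the population. Over the 210 RILs their levels correlated at r = 0.416 and rho = 0.376 (permutation p = 1e-05 for both, the smallest that 100000 resamples can give). In the limma fit over all 210 RILs, the adjusted p over all probe sets was 2.17e-07. With the 2 lines most extreme in OsMADS50 left out, r was 0.402. By r, OsMADS56 ranked 68 among all probe sets for likeness to OsMADS50, whereas OsMADS50 ranked only 364 for likeness to OsMADS56. The quartiles show the same relation. The lowest quartile of OsMADS50 held 53 lines, of which 24 were also in the lowest quartile of OsMADS56 and 5 in its highest quartile. At the other end, 23 lines were in the highest quartile of both and 8 combined high OsMADS50 with low OsMADS56. Of all RILs, 71 (33.8%) lay below the lowest parental array for both genes. The correlation was 0.366 after the 3′ minus 5′ control differences were removed, 0.362 within blocks of 10 consecutive line numbers and 0.237 after the first 5 principal components were removed, and each of these passed the test.

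**Figure D2:**
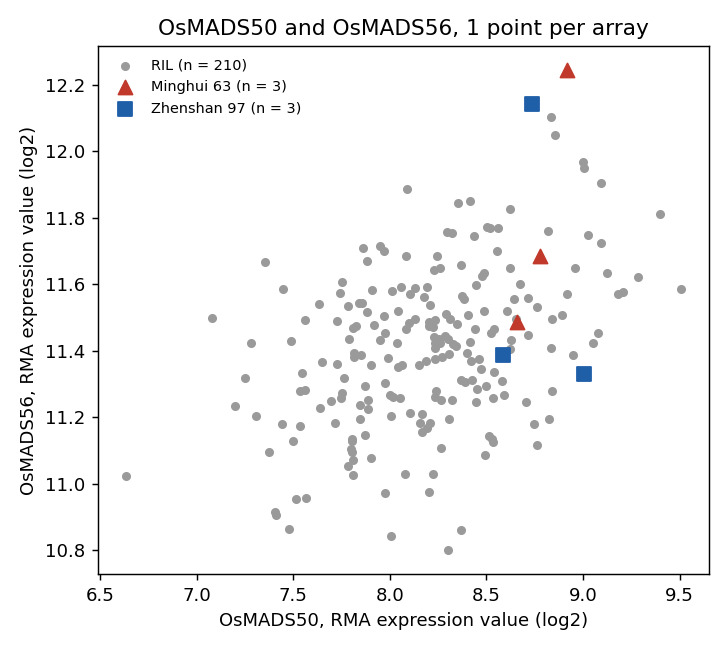
OsMADS56 (vertical axis) against OsMADS50 (horizontal axis), both as RMA expression values (log2), with 1 point per array for the 210 RILs, the 3 Minghui 63 arrays (triangles) and the 3 Zhenshan 97 arrays (squares). Lines low in OsMADS50 tended to be low in OsMADS56 (r = 0.416 over the RILs), and the second replicate of each parent lies above the RILs in OsMADS56.

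The values of these 2 genes over lines were then set against those of all other probe sets, to find which transcripts followed each of them. With OsMADS50, 13.4% of the probe sets passed the limma test, 4287 of them positively and 3386 negatively. With OsMADS56, 18.5% passed, 5753 positively (10.1%) and 4834 negatively. The gene most like OsMADS50 was LOC4352412 on chromosome 12, at r = 0.504 and rho = 0.412, followed by LOC4349227, LOC4344259, LOC4340240 and LOC4347629 down to r = 0.496. Those most opposed to it were LOC4329135, annotated as API5 for an apoptosis inhibitor, at r = -0.452, then LOC4334845, LOC4326365, LOC4343821 and LOC4338246 up to r = -0.434. For OsMADS56 the likest were LOC4349165 on chromosome 10 (r = 0.583), the homeobox gene HOS59 (r = 0.580), LOC4344171 (r = 0.576), MTP5 of the metal tolerance proteins (r = 0.570) and NLP2 of the NIN-like regulators of nitrate signalling (r = 0.565). Of the 5 genes most opposed to OsMADS56, 3 belong to the heat response. These were the small heat shock genes HSP17.7 (r = -0.591, rho = -0.589) and HSP26.2 (r = -0.561) and the heat shock factor HSF1 (LOC4336701, r = -0.547). The other two were LOC4342514 (r = -0.575) and LOC4338128 (r = -0.559). All of these kept their side of the threshold under each alternative setting run.

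Flowering genes were next examined as lists. Of 55 genes read, 12 (21.8%) passed the test with OsMADS50, 6 in each direction, and 14 (25.5%) passed with OsMADS56, 11 positively and 3 negatively. The median r over these genes was 0.03 with OsMADS50 and 0.01 with OsMADS56, beside -0.03 and -0.02 over all probe sets. The photoperiod and clock genes held most of them, with 8 of 21 (38.1%) for OsMADS50 and 10 of 21 (47.6%) for OsMADS56. Of all probe sets, 13.4% passed with OsMADS50 and 18.5% with OsMADS56. Among the 28596 left once dim probe sets were dropped, 26.6% and 33.7% did. The shares of the 55 genes lay between these backgrounds, and those of the photoperiod and clock genes lay above them. Dim genes were kept in the list shares, and enrichment of the lists was not tested. With the 3′ minus 5′ control differences removed, the count over the 55 genes was 13 for OsMADS50, where 9.51% of all probe sets passed, and 5 for OsMADS56, where 11.3% passed. The count for OsMADS56 was then no larger than its background.

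Among the clock genes, the pseudo-response regulators split in direction. OsPRR59 was the list gene most like either member, at pooled r = 0.354 with OsMADS50 and 0.512 with OsMADS56. Without the first 5 principal components its call with OsMADS50 was lost (r = 0.203, adjusted p = 0.0603), and that with OsMADS56 held (r = 0.358). Because the RILs fell into a low set (74.8% of lines) and a high set of 53 lines for OsPRR59, its correlation was taken within each. In the high set it was 0.370 with OsMADS50 (permutation p = 0.00682, Benjamini-Hochberg adjusted p = 0.0452 over the 28 within-set relations) and 0.532 with OsMADS56 (p = 8e-05, adjusted p = 0.00224). In the low set it was 0.0981 with OsMADS50 (p = 0.220, adjusted p = 0.559) and 0.209 with OsMADS56 (p = 0.00808, adjusted p = 0.0452). OsPRR95 was positive with both (r = 0.237 with OsMADS50 and 0.180 with OsMADS56). OsPRR73 was negative with both (r = -0.348 and limma adjusted p = 3.24e-05 with OsMADS50, r = -0.239 with OsMADS56, where it was lost after the control differences were removed, at r = -0.111). OsPRR37, a repressor of heading in long days, was negative with OsMADS50 (r = -0.216). On ranks, without the components and without the control differences, the calls with OsMADS50 were lost for OsPRR95 (adjusted p = 0.0680, 0.222 and 0.0654) and OsPRR37 (adjusted p = 0.0648, 0.118 and 0.0991). OsLHY, the morning MYB factor of the clock, passed with OsMADS56 alone (r = 0.337, against 0.169 with OsMADS50), and the test of the difference between the 2 correlations did not pass (adjusted p = 0.216). Without the components OsLHY with OsMADS56 was at r = 0.128 (adjusted p = 0.301).

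Hd1 and Ghd7, the regulators that read day length, were set against both members within sets of lines. Hd1, Ghd7 and Ghd8 were dim, averaging 4.72, 4.86 and 4.92 over the RILs, below every array median (5.15 to 5.32). The setting without dim probe sets therefore left these genes out. For Hd1, the rice CONSTANS gene, the RILs fell into a low set (58.6% of lines) centred at 4.41 and a high set of 87 lines centred at 5.15. The gain in BIC was small, from 293 for 1 normal component to 289 for a pair. Over all lines Hd1 passed with both members, at r = -0.270 with OsMADS50 (limma adjusted p = 0.00196) and -0.204 with OsMADS56 (adjusted p = 0.0204). OsMADS50 correlated with Hd1 at r = -0.283 within the low set (permutation p = 0.00114, adjusted p = 0.0160) and at -0.141 within the high set (p = 0.192, adjusted p = 0.539). With OsMADS56 the within-set values were -0.0855 and -0.200, and neither passed (adjusted p = 0.666 and 0.226). For Ghd7, a repressor of flowering in long days, 49.5% of lines were centred at 4.16 and 50.5% at 5.47. The Zhenshan 97 mean was 4.26, and Minghui 63 averaged 5.11. Within the high set, OsMADS50 correlated with Ghd7 at r = -0.104 (adjusted p = 0.628) and OsMADS56 at 0.103 (adjusted p = 0.628). Over all lines OsMADS50 was positive with Ghd7 (r = 0.254, limma adjusted p = 0.0041), and this call held in each alternative setting run. The relation did not pass within either set, the low set giving -0.0875 (adjusted p = 0.666). The paper states that the parent with the lower mean lacks the Ghd7 locus and that the other parent has a functional allele. If lines of the low set lack it too, their values are background signal, and r within that set cannot inform on the relation. The alleles of the lines were not tested. A within-set correlation leaves out any difference between the low and the high set, which the r of 0.254 over all lines includes. Ghd8, which encodes a subunit of the CCAAT-binding complex, also fell into 2 sets, and its within-set correlations with both members lay between -0.0695 and 0.0618.

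Of the remaining upstream genes, SE5, which makes the phytochrome chromophore, was negative with OsMADS50 (r = -0.228, limma adjusted p = 0.0128), and its r with OsMADS56 was -0.0299. Ehd4, an activator of the florigen genes with a zinc finger, was positive with both (r = 0.237 with OsMADS50 and 0.222 with OsMADS56). Ehd3 (r = 0.279) and the trithorax-like OsTrx1 (r = 0.276) were positive with OsMADS56 and did not pass with OsMADS50. With the control differences removed, the calls were lost for Ehd3 (r = 0.130, adjusted p = 0.241), for OsTrx1 (r = 0.173, adjusted p = 0.0898) and for Ehd4 with OsMADS50 (r = 0.165, adjusted p = 0.119), the last of which was at r = 0.00631 without the components. SE5 lost its call without the components (adjusted p = 0.241) and under quantile normalization (adjusted p = 0.159). For none of these 4 genes did the test of the difference between the members pass, the adjusted p lying between 0.108 and 0.949.

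Among the florigens and their targets, 1 of 12 genes (8.33%) passed with OsMADS50, fewer than the 13.4% of all probe sets, and 4 of 12 (33.3%) with OsMADS56, beside 18.5%. Once dim probe sets were dropped, these backgrounds were 26.6% and 33.7%, so the share with OsMADS56 was near the latter. The florigen Hd3a was the one that followed OsMADS50, negatively (r = -0.328, rho = -0.343, limma adjusted p = 8.56e-05), and its r with OsMADS56 was -0.0821. Hd3a was the gene with the widest range here, from 5.79 through a median of 10.42 to 11.85 over the RILs. OsMADS56 was instead positive with OsMADS14 (r = 0.386), OsMADS15 (r = 0.202) and OsGF14b, a 14-3-3 protein of the florigen receptor family (r = 0.268), and negative with RCN1, a TFL1-like antagonist of florigen (r = -0.254). The relation with OsMADS15 fell to r = 0.145 without the 2 extreme lines, and its call was lost on ranks, without the components, without the control differences and within blocks of lines (adjusted p between 0.0688 and 0.290). OsGF14b lost its call without the control differences (r = 0.160, adjusted p = 0.122) and was at r = 0.0264 without the components, where RCN1 also lost its call (r = -0.161).

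Of the 22 other MADS-box genes, 3 (13.6%, near the 13.4% of all probe sets) passed with OsMADS50. These were OsMADS55 of the SVP-like repressors (r = 0.341), OsMADS3, a C-class floral organ gene (r = 0.297), and OsMADS1, a SEPALLATA-like floral gene (r = -0.224). OsMADS1 lost its call without the components (r = -0.176, adjusted p = 0.126). With OsMADS56, limma called 0 of the 22, with 3 at an unadjusted p under 0.05 and 1 called on ranks.

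**Figure D3:**
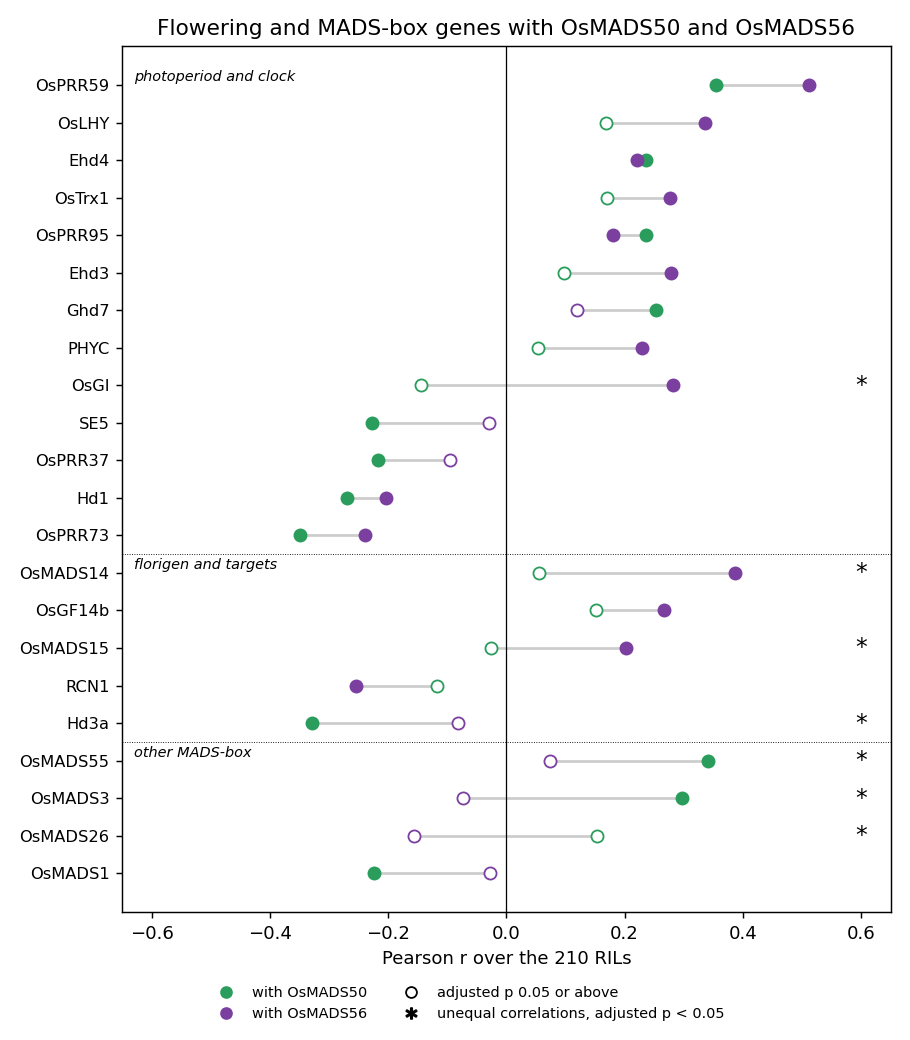
Pearson r over the 210 RILs (horizontal axis) of flowering and MADS-box genes with OsMADS50 (green) and OsMADS56 (purple), for the genes that passed any of the tests. Filled points had a limma adjusted p under 0.05, open points did not, and an asterisk marks genes whose correlations with the 2 members were unequal. OsGI stands at -0.145 with OsMADS50 and 0.281 with OsMADS56, and OsMADS14 at 0.055 and 0.386.

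The members were also compared directly, by testing each probe set against the standardised difference OsMADS50 minus OsMADS56. This test passed for 4.05% of all probe sets, for 9.18% once dim probe sets were dropped, and for 7 of the 55 list genes (12.7%). OsGI, the GIGANTEA gene that links the clock to flowering, had the lowest r with this difference (-0.395, adjusted p = 7.59e-06), being at r = -0.145 with OsMADS50 and 0.281 with OsMADS56. The relation of OsGI with OsMADS56 taken alone was lost after the control differences were removed (r = 0.175, adjusted p = 0.0824). OsMADS14 followed (-0.307, adjusted p = 0.00131), with r = 0.055 for OsMADS50 against 0.386 for OsMADS56. Both kept this call under the other settings run, with r between -0.413 and -0.366 for OsGI and between -0.308 and -0.271 for OsMADS14. Hd3a also leaned away from OsMADS50 (-0.228, adjusted p = 0.0289), as did OsMADS15 (adjusted p = 0.0477), and these 2 calls were lost in some settings, among them quantile normalization for Hd3a (adjusted p = 0.124) and ranks for OsMADS15 (adjusted p = 0.203). On the side of OsMADS50 were OsMADS3 (0.344, adjusted p = 0.000169), OsMADS55 (0.246, adjusted p = 0.0152) and the AGL12-like gene OsMADS26 (0.286, adjusted p = 0.00297). OsMADS26, named here after its values were seen, passed with neither member alone (r = 0.153 with OsMADS50 and -0.157 with OsMADS56).

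**Figure D4:**
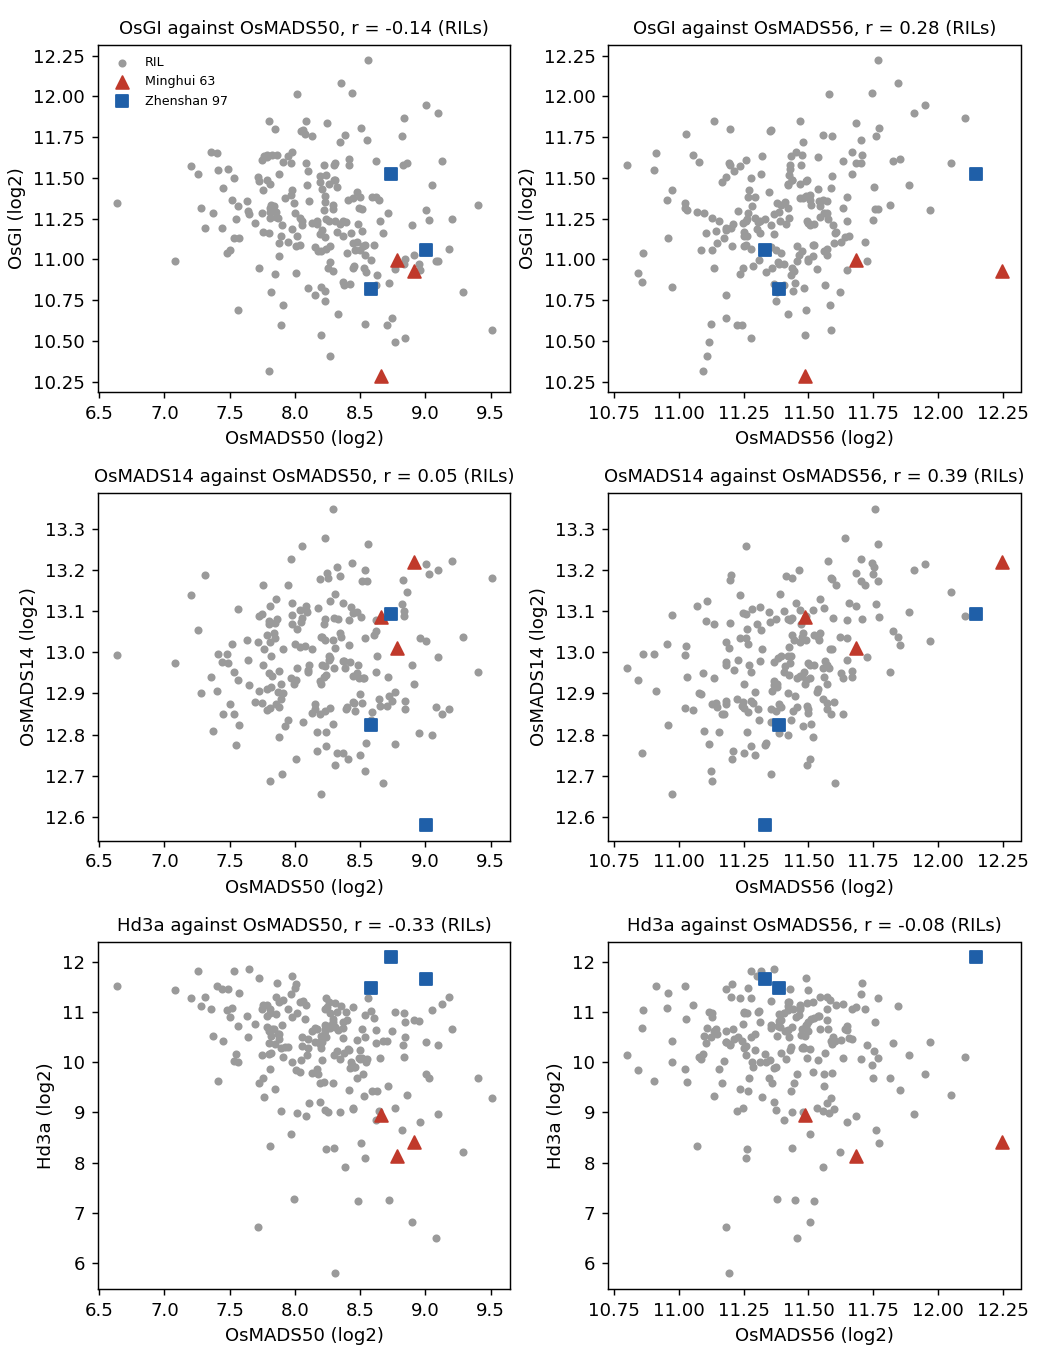
OsGI, OsMADS14 and Hd3a (rows, vertical axes, log2) against OsMADS50 (left) and OsMADS56 (right, horizontal axes, log2), with 1 point per array for RILs, Minghui 63 (triangles) and Zhenshan 97 (squares). OsGI and OsMADS14 rise with OsMADS56 (r = 0.281 and 0.386) and not with OsMADS50, whereas Hd3a falls with OsMADS50 (r = -0.328).

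OsMADS50 itself did not differ detectably between the parents, so the parental differences of the genes that followed it were read next. Of the 12 list genes called with OsMADS50, 6 passed the parental test, against 12 of all 55, and of the 14 called with OsMADS56, 2 did (14.3%). Hd1 (-0.93), Hd3a (-3.24) and OsMADS1 (-2.97), each negative with OsMADS50, were lower in Minghui 63 than in Zhenshan 97. Ghd7 (0.85), OsMADS55 (1.36) and OsMADS3 (1.12), each positive with OsMADS50, were higher in Minghui 63, with adjusted p between 0.000138 and 0.0418 over the 6. Over all 12 list genes that differed between the parents, called with OsMADS50 or not, the signs matched for 91.7%. Over all probe sets, 555 of the 7673 that followed OsMADS50 (7.23%) also differed between the parents, a share not far from the 5.32% of all probe sets. For 469 of these 555 (84.5%) the sign of r matched the sign of Minghui 63 minus Zhenshan 97, against 55.9% of all probe sets that differed between the parents. For OsMADS56 the match was 454 of 644 (70.5%), against 54.5%. The RIL and parental arrays are separate samples, but probe sets are not independent replicates, and no test was made of these shares.

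The heat shock genes were read as a list of 23 that was drawn up after the lowest correlations of OsMADS56 had been seen. With OsMADS56, 14 of the 23 passed the test, all negatively, beside 8.45% of all probe sets in that direction. With OsMADS50, 13 passed negatively and 2 positively, beside 5.92% and 7.5%. The median r over the list was -0.23 with OsMADS56 and -0.21 with OsMADS50. HSP18.6 (r = -0.546), the disaggregase gene HSP101 (r = -0.511) and HSP17.4 (r = -0.445) came after HSP17.7 and HSP26.2 with OsMADS56. For OsMADS50 the most negative were HSP16.0 and HSP18.1 (both r = -0.365) and HSP101 (r = -0.336). The difference test passed for HSP17.7 (adjusted p = 0.00366), HSP18.6 (adjusted p = 0.00161) and HSP26.2 (adjusted p = 0.0177), each more negative with OsMADS56. It passed in the other direction for HSP81-3 (-0.234, adjusted p = 0.0235) and HSP18.8 (-0.226, adjusted p = 0.0314), both more negative with OsMADS50 over all lines. For HSP81-3 the lines fell into 2 sets. Within the low set r was -0.218 with OsMADS50 (permutation test, adjusted p = 0.0595) and -0.265 with OsMADS56 (adjusted p = 0.0224). Within the high set of 79 lines r was 0.0872 with OsMADS50 and 0.00257 with OsMADS56, and neither passed (adjusted p = 0.666 and 0.989).

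In the parental arrays, replicate 2 of Minghui 63, the array with the highest OsMADS56 (12.24), was the lowest of its parent in 10 of these 14 genes. HSP101 stood at 7.70, 6.40 and 7.50 on the Minghui 63 arrays and at 6.89, 6.04 and 6.96 on the Zhenshan 97 arrays, lowest in replicate 2 of each. HSP26.2 followed the same order, at 4.21, 3.57 and 4.09 in Minghui 63 and at 3.98, 3.92 and 4.25 in Zhenshan 97. In Zhenshan 97, however, only 7 of the 14 were lowest in replicate 2, and the other 7 in replicate 1.

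**Figure D5:**
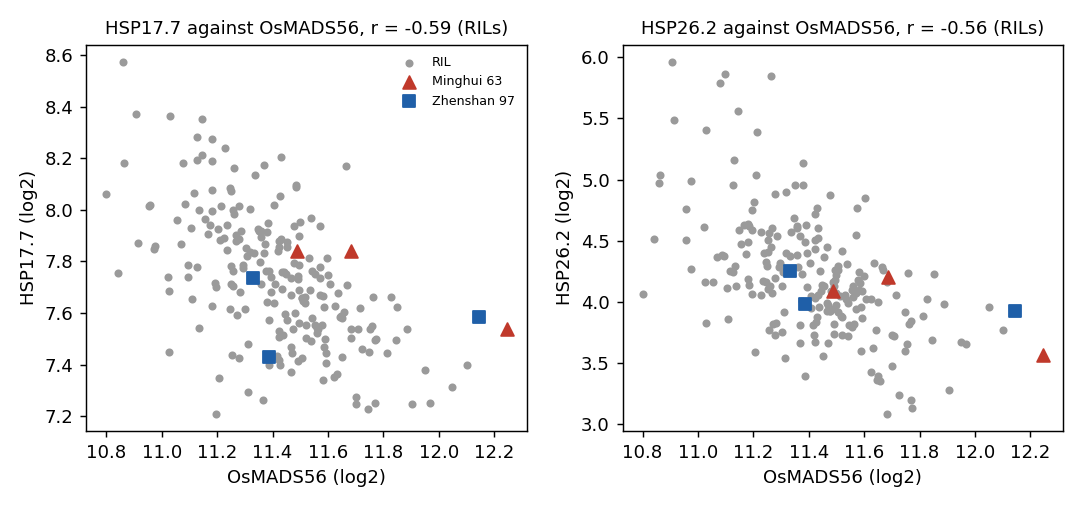
HSP17.7 and HSP26.2 (vertical axes, log2) against OsMADS56 (horizontal axis, log2), with 1 point per array for the RILs, Minghui 63 (triangles) and Zhenshan 97 (squares). Both fall as OsMADS56 rises over the RILs (r = -0.591 and -0.561).

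Measures of the arrays moved with the members to some extent. The 5 control differences together accounted for 7.29% of the variance of OsMADS50 over the RILs and 18.1% of that of OsMADS56, whose r with the ubiquitin difference was -0.419. Removing them left HSP17.7 with OsMADS56 at r = -0.507 and HSP26.2 at -0.526. Lines with neighbouring numbers were alike in OsMADS56 (r = 0.251) but not in OsMADS50 (r = 0.0331). Within blocks of 10 line numbers, HSP17.7 with OsMADS56 was at r = -0.596. The correlation of the members with the mean of the 9 spikelet markers was -0.0389 for OsMADS50 and -0.0671 for OsMADS56. Of these 9 markers, OsMADS1 (r = -0.224) and OsMADS3 (r = 0.297) passed with OsMADS50, in opposite directions, and limma called 0 with OsMADS56 (1 at an unadjusted p under 0.05, 0 on ranks). With the mean of the 3 leaf markers r was -0.170 for OsMADS50 and 0.101 for OsMADS56, and OsRCA, the Rubisco activase gene, passed with OsMADS56 (r = 0.271, adjusted p = 0.0023). The part of these markers in the results was not tested. With the mean of the heat shock genes removed from both, OsMADS50 and OsMADS56 still correlated at r = 0.273.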

How the data were processed

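Flag leaves of 210 RILs, Minghui 63 and Zhenshan 97 were profiled on Affymetrix rice arrays. The deposited log2 expression values per probe set were made by the authors with RMA in the affy package, including background correction and normalization between arrays. For their versions, none is given in the sources used here. All 216 arrays were used without further scaling, and 187 control rows were left out. Gene names came from the platform annotation, updated through RefSeq, with 22436 probe sets paired with 1 symbol.

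Group differences and correlations were fitted with limma 3.58.1 in R 4.3.3 over all probe sets (eBayes with trend, Benjamini-Hochberg, threshold 0.05), with exact permutation tests of the parents and 100000 resamples elsewhere, two-sided. The labels call the parental arrays biological replicates, and their number limits the precision. Lines were divided into 2 sets where a mixture of 2 normal components had the lower BIC, an Ashman D over 2 and at least 6 lines in each. Named genes were the 5 highest and 5 lowest r for each member, and up to 5 per direction and list among those past the threshold. Members and lists were chosen with earlier results of these data known.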

Additional observations from a re-analysis of the deposited data

How the results depend on the processing

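The parental differences of OsMADS50 and OsMADS56 stayed short of the threshold under every alternative, at -0.09 to 0.12 and -0.04 to 0.45 without single parental arrays, so that neither has a settled sign. The count of probe sets between the parents (3043) ranged from 1544 to 3418. Over the probe sets together, replicate numbers did not pair the parents (same-numbered deviations correlated at -0.202, -0.260 and -0.0707). OsMADS56 itself did follow the numbers, being highest in replicate 2 and lowest in replicate 3 of both parents. With the replicate block the count was 2312. The difference of OsMADS50 was then 0.01 (SE 0.22). That of OsMADS56 was 0.18, with an SE of 0.14 against 0.27 without the block. Both were again short of the threshold.

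The lower RIL mean kept its direction throughout but not its call. Without single parental arrays the difference ranged from -0.63 to -0.52 for OsMADS50 and from -0.39 to -0.18 for OsMADS56, with 2430 to 4391 probe sets called. OsMADS50 was at -0.53 under quantile normalization (adjusted p = 0.0611), -0.58 against Minghui 63 alone, -0.58 against Zhenshan 97 alone and -0.38 with the control covariates. OsMADS56 was at -0.28 (adjusted p = 0.0548), -0.40, -0.21 and -0.15 in these settings. The count was 687 against Minghui 63 alone and 7510 against Zhenshan 97 alone. The cause was not tested.

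The correlation of OsMADS50 with OsMADS56 kept its call in every setting. The count of probe sets that followed OsMADS50 (7673) was 2742 without the first 5 principal components and 4316 under quantile normalization. That for OsMADS56 (10587) was 4497 without the components and 6436 without the control differences, and that of unequal probe sets (2319) was 3704 without the components. Of 66 named correlations, 17 lost their call without the components, 12 without the control differences and 5 or fewer in each other setting. Removing the components also turned HSP22.3 with OsMADS56 to r = 0.122. Settings with the heat shock list were added after the data were seen. The array has 1 probe set for each member, so no second probe set could be tried.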
